A study of Mus musculus with 12 samples.

Results

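The 9 genes described here encode the submembrane spectrin and ankyrin skeleton and proteins that crosslink actin to it or to other filaments. They are the spectrins Sptan1, Sptbn1 and Sptbn4, the ankyrins Ank1, Ank2 and Ank3, the cytolinker Plec and the alpha-actinins Actn1 and Actn4. They were chosen by symbol from the 24060 genes listed in the deposited table, with the IP over input ratio of these libraries already known, so that ratio is given below as a description. All 9 were listed and all 9 passed the filter on low counts, which left 14354 genes.

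The libraries came from brain white matter of 6 male mice that all carried Tie2-Cre:Rpl22-HA, with no Cre-negative or untagged animal among them. Cre driven by the Tie2 promoter, which is active in endothelial cells and in some blood-forming cells, lets the ribosomal protein Rpl22 carry an HA (hemagglutinin) epitope. An anti-HA pulldown (IP) then collects tagged ribosomes with their RNA, and an input library of the whole sample was made for each animal. Animals 489, 555 and 556 ate a control-fat diet with 10% of kcal as fat (CFD) and animals 516, 517 and 676 a high-fat diet with 60% (HFD), which gave 4 groups of 3 libraries. The age of these mice is not given in the sources used here. Each animal gave 1 IP and 1 input library, so the 3 libraries of a group were separate animals.

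Spectrins are long rod-shaped proteins that pair as alpha and beta chains, and the pairs join short actin filaments into a lattice under the plasma membrane. Ankyrins are adaptors that bind the beta chain on one side and ion channels, pumps and adhesion molecules on the other, and in myelinated axons this lattice holds sodium channels at the initial segment and at nodes. Plectin links intermediate filaments to actin and to adhesion sites, and alpha-actinins crosslink actin filaments at adhesions, also in endothelial cells.

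Library totals ranged from 19567186 to 33660708 counts. The ribosomal RNA precursor Rn45s took 38.7% to 42.3% of the counts in CFD IP, 17.1% to 19.1% in HFD IP and 6.34% to 14.2% in the inputs. Levels are given in the usual unit CPM, as counts relative to a library size scaled by the TMM method, and CPM per kb divides this by gene length. Summed over 12 endothelial markers, the level was 10.6 to 22.1 CPM in CFD input, 3.87 to 213 CPM in CFD IP, 11.98 to 43.4 CPM in HFD input and 9.84 to 67.1 CPM in HFD IP. The 213 CPM came from the CFD IP of animal 556 alone, beside 22.1 CPM in its input. In animals 489 and 555 the CFD IP had 6.83 and 3.87 CPM, below their inputs at 10.6 and 14.5 CPM. In HFD the IP was below the input in animal 676, at 9.84 against 43.4 CPM, and above it in animals 516 and 517. From 1 to 6 of the 12 were at 0 in each library, and Cldn5, a tight junction gene of brain endothelium, was at 0 in all 3 CFD inputs. Summed over 10 neuron markers, the level was 5845 to 9625 CPM in CFD IP and 9134 to 11157 CPM in HFD IP. Oligodendrocyte markers summed to 5266 to 6511 CPM in CFD IP and 3079 to 7718 CPM in HFD IP, and astrocyte markers to 3890 to 9914 CPM and 4175 to 7976 CPM. In CFD and HFD input, neuron markers summed to 9207 to 13764 CPM and 8040 to 11523 CPM. Oligodendrocyte markers there summed to 4209 to 5297 CPM and 3102 to 4807 CPM, and astrocyte markers to 4520 to 5572 CPM and 3750 to 3948 CPM. The pulldown libraries were thus not led by endothelial markers, and a level in them is not assigned to endothelial cells here.

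Sptan1, the alpha chain of non-erythroid spectrin, lies in the mm10 assembly on chromosome 2, from 29965560 to 30031451. Its level was 938, 549 and 671 CPM in the CFD inputs of animals 489, 555 and 556, and 2812, 728 and 919 CPM in their IP libraries. In HFD it was 503, 616 and 929 CPM in the inputs of animals 516, 517 and 676, and 829, 890.0 and 1367 CPM in their IP libraries. Each animal had more in IP than in input, but the IP and input groups overlapped in both diets, and the IP of animal 489 stood far above all other libraries.

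Sptbn1, the main beta chain paired with that alpha chain outside red cells, lies on chromosome 11 at 30099395 to 30268384. In the same order of animals its level was 1343, 1229 and 1023 CPM in CFD input and 3967, 1515 and 1638 CPM in CFD IP. In HFD it was 909, 808 and 1515 CPM in input and 1536, 1523 and 2151 CPM in IP. IP lay above input in all 6 animals and the groups did not overlap in either diet, although the HFD input of animal 676 nearly reached the IP level of animals 516 and 517.

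Sptbn4, a beta chain concentrated at axon initial segments and nodes, lies on chromosome 7 at 27356383 to 27447704 and was much lower. Its level was 63.0, 55.9 and 29.0 CPM in CFD input and 118, 20.1 and 30.8 CPM in CFD IP. The HFD libraries gave 17.1, 13.3 and 64.3 CPM in input and 24.7, 27.7 and 73.8 CPM in IP. Animals 489 and 676 were high in both of their libraries, so this gene varied more between animals than between IP and input.

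Ank1, an ankyrin best known from red cells that is also made in neurons and muscle, lies on chromosome 8 at 22974836 to 23150501. Its level was 23.8, 6.21 and 49.1 CPM in CFD input and 186, 97.9 and 227 CPM in CFD IP. In HFD it was 27.4, 38.7 and 28.5 CPM in input and 59.9, 72.9 and 50.1 CPM in IP. In CPM, all IP libraries were above all inputs, and the 3 CFD IP libraries were above the 3 HFD IP libraries. The CFD input of animal 555 had the fewest reads, 176 counts. Red blood cell markers summed to 3.22 to 21.3 CPM in CFD input and 0.387 to 0.673 CPM in CFD IP. These sums lie near the floor, with 5 to 7 of the 8 markers at 0 in each library and 1 of the 8 tested. Hba-a1, Hba-a2, Hbb-bt and Epb4.2 were at 0 in all 12 libraries, which is not read as absence of red cell RNA. A red cell source of Ank1 was not tested.

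Ank2, also called ankyrin-B, which anchors transporters and is spread along axons, lies on chromosome 3 at 126921607 to 127500347. Its level was 746, 641 and 573 CPM in CFD input and 2423, 961 and 1651 CPM in CFD IP. The HFD libraries gave 428, 507 and 824 CPM in input and 886, 922 and 1472 CPM in IP. IP and input did not overlap in either diet, and the IP libraries of the diets did overlap.

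Ank3, also called ankyrin-G, which organises initial segments and nodes, lies on chromosome 10 at 69533486 to 70027436. Its level was 827, 598 and 641 CPM in CFD input and 2073, 822 and 736 CPM in CFD IP. In HFD it was 547, 528 and 820.1 CPM in input and 1111, 1108 and 1404 CPM in IP. Only the HFD groups were separate, since the IP libraries of animals 555 and 556 lay below the input of animal 489.

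Plec, the plectin gene, lies on chromosome 15 at 76170974 to 76231378. Its level was 174, 89.2 and 80.3 CPM in CFD input and 1058, 176 and 454 CPM in CFD IP. The HFD libraries gave 82.5, 70.1 and 156 CPM in input and 206, 208 and 366 CPM in IP. The IP and input groups did not overlap in either diet, and the 3 CFD IP libraries spread from below the lowest HFD IP library to well above the highest.

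Actn4, an alpha-actinin of non-muscle cells, lies on chromosome 7 at 28893248 to 28962351. Its level was 37.1, 72.7 and 49.0 CPM in CFD input and 262, 206 and 163 CPM in CFD IP. The HFD libraries gave 66.8, 38.8 and 61.9 CPM in input and 83.3, 63.5 and 67.5 CPM in IP. The 3 CFD IP libraries stood above all 9 others, and the HFD IP libraries overlapped the inputs.

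Actn1, the other non-muscle alpha-actinin, lies on chromosome 12 at 80167542 to 80260420 and did not follow its relative. Its level was 32.8, 47.4 and 18.4 CPM in CFD input and 20.7, 20.4 and 24.1 CPM in CFD IP. In HFD it was 27.5, 23.0 and 44.4 CPM in input and 60.6, 6.70 and 48.5 CPM in IP. The groups overlapped in every comparison, and the HFD IP of animal 517 was the lowest of the 12.

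**Figure D1:**
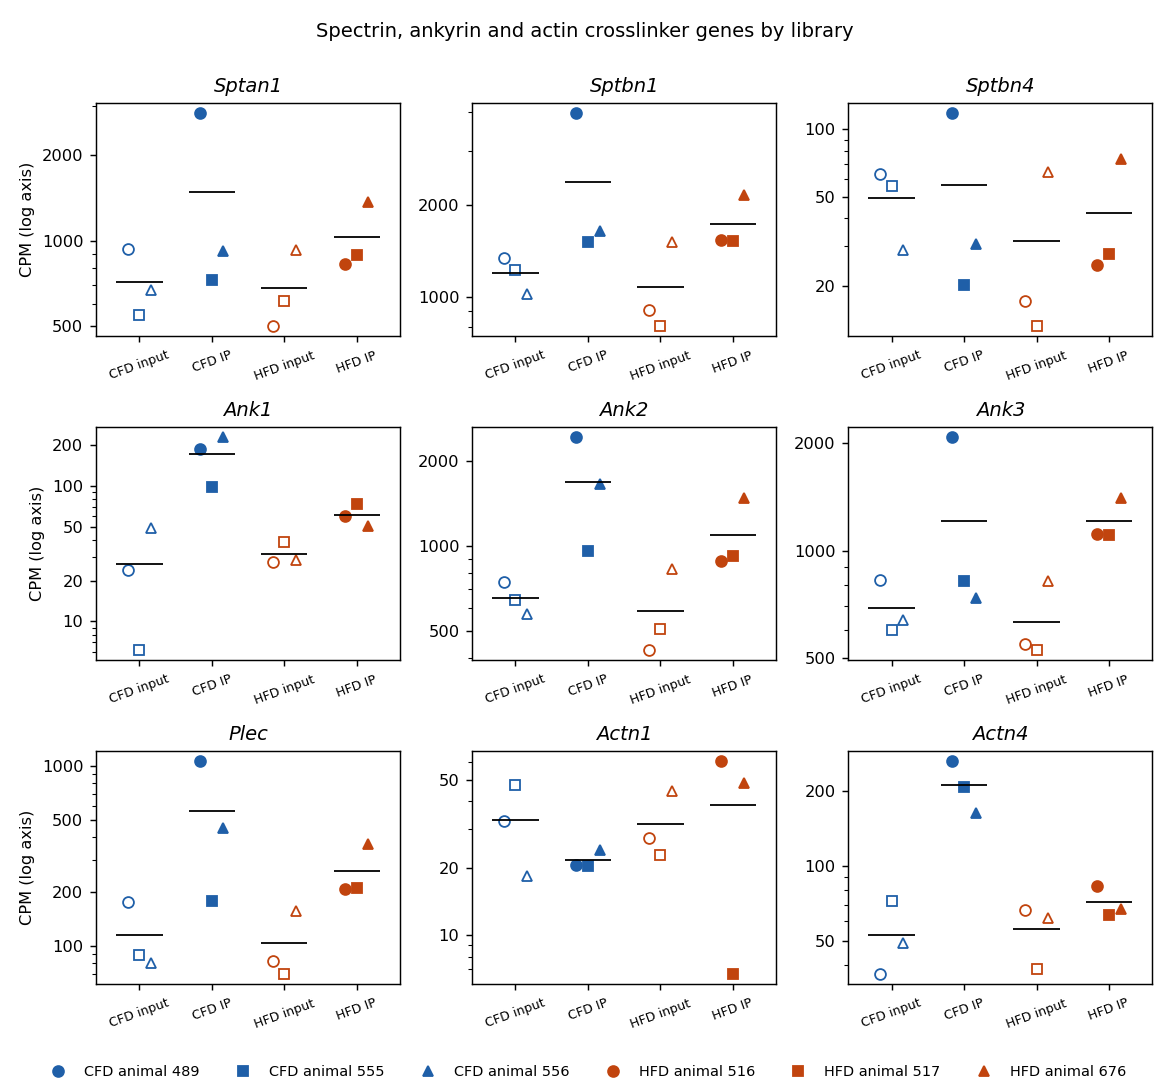
Level of each of the 9 genes in the 12 libraries, in CPM on a log axis, with open symbols for input, filled symbols for IP, symbol shapes for animals and a black line at the group mean (n = 3). The CFD IP of animal 489 is the highest library for 7 of the 9 genes within its group, and Actn4 and Ank1 are the genes whose CFD IP and HFD IP libraries do not overlap.

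Per kb of gene length, Sptbn1, Ank2, Sptan1 and Ank3 made up an upper tier and the other 5 genes a lower one. In CFD input the levels were 145 ± 19.7 CPM per kb for Sptbn1, 113 ± 15.1 for Ank2, 90.4 ± 25.0 for Sptan1 and 69.1 ± 12.2 for Ank3 (SD, n = 3 each). Actn4 followed at 13.9 ± 4.76 CPM per kb, then Actn1 at 8.79 ± 3.87, Plec at 7.67 ± 3.47, Sptbn4 at 5.64 ± 2.06 and Ank1 at 3.19 ± 2.61 (SD, n = 3 each). In CFD input the step from Ank3 to Actn4 was the only one between neighbours in the order at which the libraries did not overlap, and it was also free of overlap in the other 3 groups. In HFD input the step from Plec, at 6.88 CPM per kb, to Ank1, at 3.81 CPM per kb, did not overlap either. In CFD IP, Ank1 stood at 20.6 ± 7.96 CPM per kb, above Sptbn4 at 6.44 ± 6.13 CPM per kb, but these overlapped (SD, n = 3 each). All other neighbours in the order overlapped in their libraries.

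The IP over input ratio of each animal was the quantity named in the choice of these genes. As a mean log2 ratio, Ank1 stood at 3.05 ± 0.887 in CFD and 0.953 ± 0.161 in HFD (SD, n = 3 each). Its CFD ratios were 2.96, 3.97 and 2.21 in animals 489, 555 and 556, and its HFD ratios were 1.13, 0.914 and 0.815 in animals 516, 517 and 676. Actn4 showed the same separation of the diets, with 2.82, 1.505 and 1.73 in CFD and 0.318, 0.709 and 0.125 in HFD. Plec had the next highest mean, 2.03 ± 0.905 in CFD and 1.37 ± 0.179 in HFD (SD, n = 3 each), with animal 555 at 0.983 below all 3 HFD animals. For the upper tier, the CFD and HFD means were 1.27 and 0.916 for Ank2, 0.848 and 0.726 for Sptbn1, 0.815 and 0.603 for Sptan1, and 0.661 and 0.956 for Ank3. In each of these 4 genes the HFD ratios lay within the range of the CFD ratios. Sptbn4 ranged from -1.47 in animal 555 to 1.06 in animal 517, and Actn1 from -1.78 in animal 517 to 1.14 in animal 516.

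**Figure D2:**
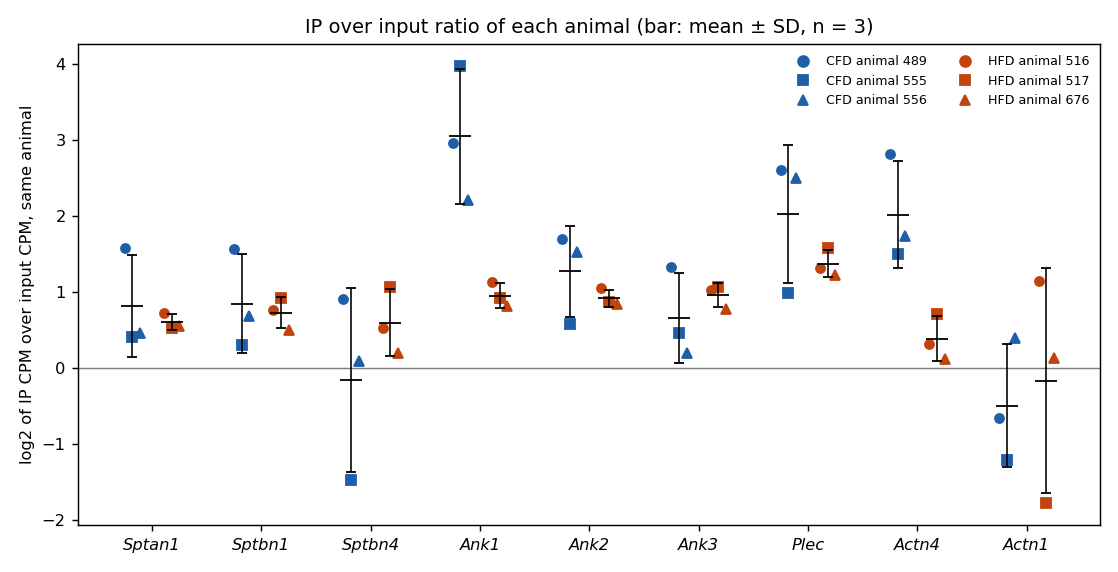
Log2 of IP CPM over input CPM of the same animal, for the 9 genes, with CFD animals in blue, HFD animals in orange and black bars for the mean ± SD (n = 3). The diets are separate only for Ank1, at 2.21 to 3.97 against 0.815 to 1.13, and Actn4, at 1.505 to 2.82 against 0.125 to 0.709.

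The ratio was above 1 in all 6 animals for 7 of the 9 genes, all but Sptbn4 and Actn1, and this was so for 4.09% of the genes tested. The direction of the smaller ratios depended on how libraries were scaled. Relative to TMM, scaling to library totals without Rn45s and Lars2 lowered the members' log2 ratios by 0.235 on average, and Sptbn4 then had a mean of -0.016. With plain library totals, Rn45s included, the mean shift was -0.826 in CFD animals and -0.421 in HFD animals, and only Ank1 and Plec were above 1 in all 6 animals. Ank2 was then above 1 in 5 animals, Sptan1, Sptbn1, Ank3 and Actn4 in 4, Sptbn4 in 2 and Actn1 in 1. The ratios are thus relative to the scaling, which shifts all genes of a library together.

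Counted with edgeR's quasi-likelihood test at an adjusted p under 0.1, Ank1, Plec and Actn4 were called higher in CFD IP than in CFD input, against 27 genes or 0.188% of all genes tested. At an unadjusted p under 0.05 the count was 7 of 9, against 11.8%, and with DESeq2 at an adjusted p under 0.1 it was 4 of 9, against 7.13%. In 5 of the 9 genes the 3 CFD IP libraries were all above the 3 inputs, against 6.43% of genes. Because the choice of the genes used this ratio, nothing is read from these counts. In a fit with the animal as a block, which pairs IP and input of a mouse, 139 genes were called in CFD and Ank2 joined the 3 genes. Leaving out animal 489, 555 or 556, or fitting only the 6 CFD libraries, left 0 of the 9 called.

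In HFD none of the 9 genes was called by edgeR, where 2 genes or 0.0139% were called in all, and none by DESeq2, where 0.729% were called. At an unadjusted p under 0.05 the count was 4 of 9, against 6.51%, namely Sptbn1, Ank2, Ank3 and Plec. The HFD IP libraries were all above the HFD inputs for 5 of the 9, against 6.13%. With the animal as a block, Plec was called, with an edgeR adjusted p of 0.0944. The median log2 fold change of the 9 genes was 1.05 in CFD and 0.69 in HFD, beside -0.01 for all genes in each diet. As in CFD, the choice of the genes used this ratio, so nothing is read from these counts and medians.

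The comparison of HFD IP with CFD IP asks what differed with diet in the ribosome pulldown. Actn4 averaged 210.4 ± 49.9 CPM in CFD IP against 71.4 ± 10.5 CPM in HFD IP (SD, n = 3 each). Ank1 averaged 170.1 ± 65.8 CPM against 61.0 ± 11.4 CPM, and Plec 563 ± 451 CPM against 260.0 ± 91.6 CPM (SD, n = 3 each). None of the 9 genes passed an adjusted p under 0.1 with edgeR, where 8 genes or 0.0557% did. Actn4 differed by -1.56 on the log2 scale (SE 0.401), and its edgeR p was 0.000788 before and 0.255 after adjustment over all genes. The difference was -1.48 for Ank1 (SE 0.557, edgeR adjusted p 0.366) and -1.11 for Plec (SE 0.483, edgeR adjusted p 0.404). These 3 had an unadjusted p under 0.05, against 10.9% of genes. DESeq2 called Actn4 alone, with an adjusted p of 0.002 where 7.07% of genes were called, and limma voom with the animal as a random block called none of the 9, where 0.0348% were called. Over all alternatives the adjusted p of Actn4 ran from 0.002 to 0.780. In CPM the groups were separate, HFD below CFD, for Actn4 and Ank1, against 4.66% of genes. As plain percent of library counts, Rn45s included, the Ank1 groups overlapped. The CFD IP of animal 555 had 0.00683% and the HFD IP of animal 517 had 0.00705%. Actn4 stayed separate there, with at least 0.00985% in CFD IP and at most 0.00764% in HFD IP. The 9 genes were chosen with earlier results of these data known, so nothing is read from the counts of members given here.

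The other 6 genes differed by less than Plec. Their log2 fold changes were -0.62 for Ank2 (SE 0.323), -0.53 for Sptan1 (SE 0.390), -0.45 for Sptbn1 (SE 0.326), -0.42 for Sptbn4 (SE 0.714), -0.00 for Ank3 (SE 0.329) and 0.83 for Actn1 (SE 0.715). Without animal 489 the values became positive for Sptan1 at 0.30, Sptbn1 at 0.12, Sptbn4 at 0.70 and Ank3 at 0.61, and Plec moved to -0.30. Actn4 and Ank1 kept -1.39 and -1.43. The median of the 9 genes was -0.53, beside 0.03 for all genes. In bulk libraries fewer cells of a type and less RNA per cell cannot be told apart. The share of Rn45s also differed between the IP groups. With Rn45s and Lars2 left out of the fit the log2 fold changes were -1.58 for Actn4, -1.50 for Ank1 and -1.14 for Plec. That fit was again scaled by TMM, which is made to discount such extreme genes, so similar values there decide nothing about Rn45s. The part of the Rn45s share in these differences was not tested.

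In the whole white matter input none of the 9 genes passed with edgeR, where the background was 0%, and none had an unadjusted p under 0.05, against 2.03% of genes. DESeq2 called none of the 9, against 0.223%, and limma voom called none, against 0%. The log2 fold changes of HFD input against CFD input ran from -0.64 for Sptbn4 (SE 0.716) to 0.26 for Ank1 (SE 0.547). Ank1 averaged 26.3 ± 21.5 CPM in CFD input and 31.5 ± 6.23 CPM in HFD input, and Actn4 52.9 ± 18.1 CPM and 55.9 ± 14.9 CPM (SD, n = 3 each).

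**Figure D3:**
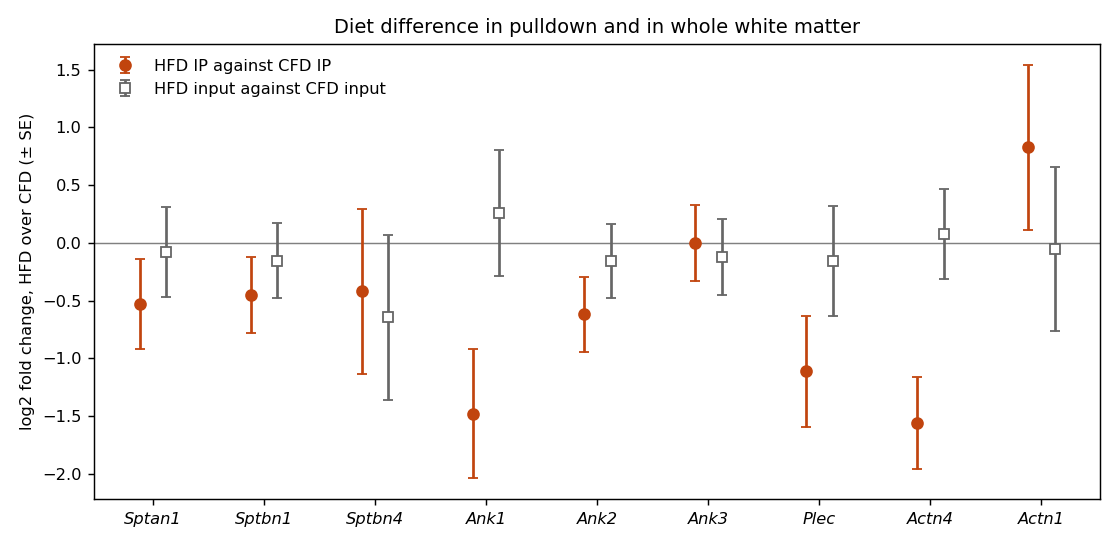
Log2 fold change of HFD over CFD with its standard error, for the 9 genes, in IP (filled circles) and in input (open squares). In IP, Actn4 at -1.56, Ank1 at -1.48 and Plec at -1.11 lie furthest below 0, and in input all 9 lie between -0.64 and 0.26.

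The test of whether the IP over input difference itself changed with diet gave a log2 difference, HFD minus CFD, of -1.74 for Ank1 (SE 0.779, edgeR adjusted p 0.896) and -1.64 for Actn4 (SE 0.558, edgeR adjusted p 0.829). These were the 2 of 9 genes with an unadjusted p under 0.05, 0.0361 and 0.00769, against 5.36% of all genes. The edgeR adjusted p passed 0.1 for none of the 9 genes and for 0% of all genes, and DESeq2 called none of the 9, against 1.17%. Plec stood at -0.96 (SE 0.676), and the other 6 genes between -0.46 and 0.88. This comparison shares its libraries with those above. It is the difference between diets of the ratio used in the choice of the genes, so nothing is read from these counts.

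Shares within a family, from counts per base of gene length, do not depend on library scaling. Actn4 made up 92.5%, 90.8% and 86.9% of the sum of Actn1 and Actn4 in the CFD IP libraries of animals 489, 555 and 556, and 52.6%, 60.1% and 72.3% in their inputs. In HFD IP the share was 57.4%, 90.3% and 57.7% in animals 516, 517 and 676, and in HFD input 70.5%, 62.3% and 57.8%. The high share in animal 517 came with the low Actn1 of that library, 203 counts, while all 3 CFD IP libraries were high. Ank1 made up 5.02% ± 1.86 of the 3 ankyrins in CFD IP, 1.76% ± 1.57 in CFD input, 2.44% ± 0.844 in HFD IP and 2.41% ± 0.858 in HFD input (SD, n = 3 each). The CFD IP and CFD input libraries overlapped narrowly, at 3.45% and 3.499%. Ank3 made up 37.2% ± 1.94 in CFD input and 27.6% ± 7.35 in CFD IP, and 38.0% ± 3.04 and 38.6% ± 3.13 in HFD (SD, n = 3 each). Sptbn4 was at most 4.24% of the sum of Sptbn1 and Sptbn4 in any library.

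**Figure D4:**
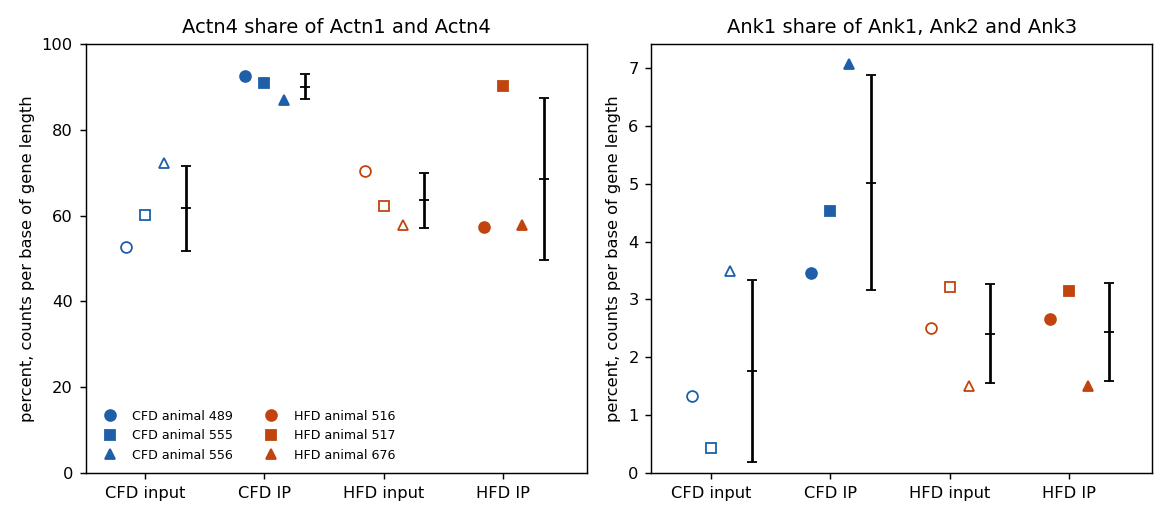
Share of Actn4 in the sum of Actn1 and Actn4 (left) and of Ank1 in the sum of the 3 ankyrins (right), in percent of counts per base of gene length, for each library, with the mean ± SD (n = 3) at the right of each group. Actn4 holds 86.9% to 92.5% in CFD IP and 52.6% to 72.3% in CFD input, and the Ank1 share in HFD is near 2.4% in both fractions.

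Other genes of the same structures were read from lists of relatives and partners. In the list of other actin crosslinkers and adhesion linkers, 1 of 13 genes was called, the actin bundling gene Fscn1, with IP above input in CFD by 2.26 on the log2 scale (SE 0.473, edgeR adjusted p 0.0799). In HFD its IP over input difference was 0.60 (SE 0.453), and HFD IP against CFD IP gave -1.33 (SE 0.459, edgeR adjusted p 0.346). None of 16 genes of the spectrin-actin junction, 11 ankyrin-bound membrane proteins and 8 plakins and plectin partners was called in any comparison.

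Among the most abundant of these, the actin gene Actb had a CFD log2 fold change of IP over input of 0.49 (SE 0.248), the tropomodulin Tmod2 -0.09 (SE 0.293), the band 4.1 relative Epb4.1l1 1.10 (SE 0.254) and the adducin Add2 0.76 (SE 0.281). Of the membrane proteins that ankyrins hold, the pump subunit Atp1b1 stood at -0.27 (SE 0.237), the sodium channels Scn8a at 0.62 (SE 0.324) and Scn2a1 at 0.12 (SE 0.361), and the adhesion molecule Nfasc at 0.61 (SE 0.327). The plakins Dst and Macf1, which bind actin and microtubules, stood at 1.34 (SE 0.319) and 1.16 (SE 0.419), the astrocyte filament gene Gfap at 0.86 (SE 0.387) and the desmosomal plakin Dsp at 0.39 (SE 0.645). In HFD the same difference was 0.07 for Actb (SE 0.248), -0.03 for Tmod2 (SE 0.293), 0.74 for Epb4.1l1 (SE 0.253) and 0.56 for Add2 (SE 0.280). Atp1b1 stood at 0.53 (SE 0.238) there, opposite in sign to CFD, Scn8a at 1.31 (SE 0.328), Scn2a1 at 0.49 (SE 0.362) and Nfasc at 0.91 (SE 0.328). Dst stood at 0.93 (SE 0.316), Macf1 at 0.83 (SE 0.416), Dsp at 1.18 (SE 0.652) and Gfap at -0.16 (SE 0.384), the last also opposite in sign to CFD.

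The list medians in CFD were 0.06 for the junction, 0.12 for the ankyrin-bound proteins, 1.01 for the plakins and plectin partners and 0.32 for the crosslinkers, beside 1.05 for the 9 genes and -0.01 for all genes. In HFD they were 0.01, 0.59, 0.61 and 0.49, beside 0.69 and -0.01. In HFD IP against CFD IP they were -0.21, 0.15, -0.44 and -0.20, beside -0.53 and 0.03.

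Most of the 9 genes are long, with 6 of 9 in the top 10% of genes, those of 6177 bases or more. Gene length, as the deposited values imply it, was 14946 bases for Plec, 9962 for Ank3, 8737 for Sptbn4, 8267 for Ank1, 8239 for Sptbn1, 7957 for Sptan1 and 5770 for Ank2, and 3811 and 3739 for Actn4 and Actn1. Across all 14354 genes, longer genes had slightly higher IP over input, with a Spearman correlation of 0.129 in CFD and 0.138 in HFD, given as a description since genes of 1 set of libraries share depth and scaling. The median log2 fold change was -0.31 in CFD and -0.30 in HFD for the shortest 10% of genes, and 0.23 and 0.24 for the longest 10%. Sptbn4, at 0.19 in CFD, was the only one of the 6 longest genes below the CFD median of the longest 10%, and the others ran from 0.81 to 2.69. The part of length in the ratios was not tested.

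**Figure D5:**
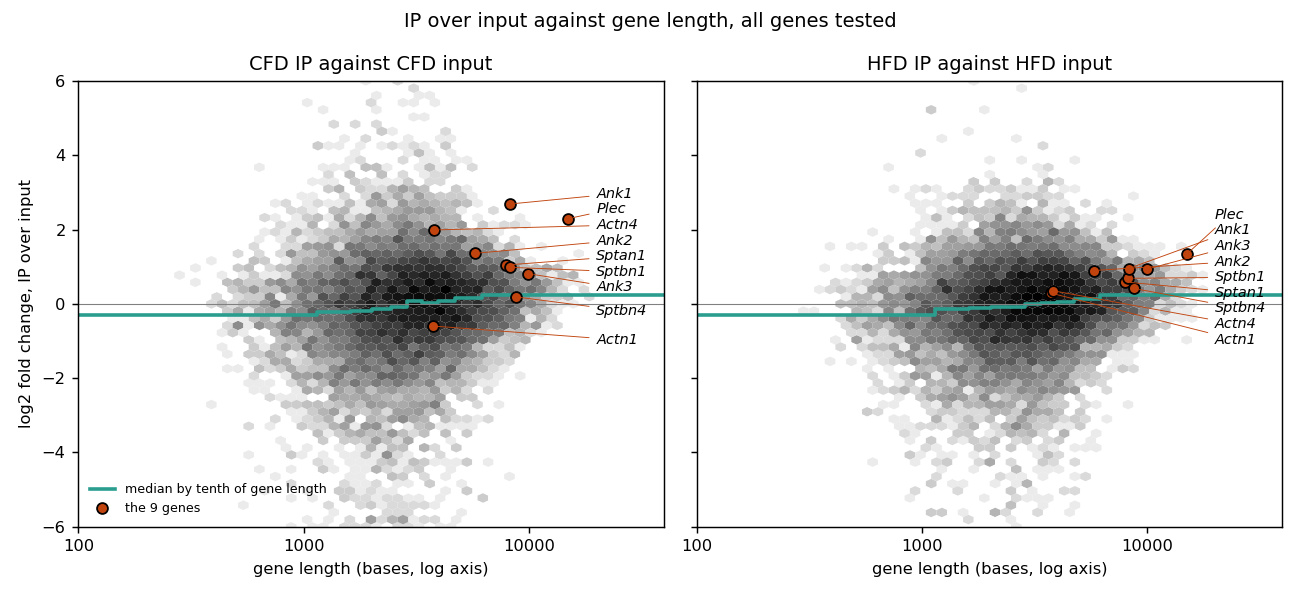
Log2 fold change of IP over input against gene length in bases (log axis) for all 14354 genes tested, as grey density, in CFD (left) and HFD (right), with the median by steps of 10% of the genes in order of length as a green line and the 9 genes as labelled orange points. The line rises from -0.31 to 0.23 in CFD and from -0.30 to 0.24 in HFD, and Ank1, Plec and Actn4 lie well above it in CFD.

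Over the 12 libraries, IP and input together, most of the 9 genes varied together. They were chosen with their IP over input ratio known, which enters the correlations below, so none is read as a finding. As a description, Pearson's r of log2 CPM was 0.977 between Ank2 and Plec, 0.944 between Sptbn1 and Plec and 0.939 between Sptan1 and Sptbn1 (n = 12 libraries, which share animals and scaling). Actn1 stood apart, with a median r of -0.043 with the other 8, and Ank1 and Sptbn4 had an r of -0.022 with each other. The mean standardized level of the 9 genes was highest in the CFD IP of animal 489, at 1.76, then in the HFD IP of animal 676, at 0.751, and lowest in the HFD input of animal 517, at -0.982. Among 8427 other genes with a mean of at least 10 CPM, the 5 most like this mean level were Sptb, a beta spectrin, with r of 0.963, Arhgef17, a guanine nucleotide exchange factor, with 0.956, the plakin Dst with 0.947, the kinase gene Camk2b with 0.943 and Mprip, which binds actin, with 0.940. Sptb itself had 1241, 231 and 356 CPM in CFD IP beside 153, 145 and 92.2 CPM in CFD input.

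Promoters are shown for the 3 genes whose RefSeq promoter entry adjoins the annotated start of the gene. Their r with the mean level of the 9 genes, themselves included, was 0.935 for Sptan1, 0.713 for Actn4 and 0.087 for Actn1. A link between promoter letters and level was not tested. Each line gives the 150 bases before the start in GRCm38, the assembly also called mm10, from 5′ to 3′ on the strand of the gene. Capitals mark GC boxes (GGGCGG or its complement CCGCCC) and CCAAT boxes (CCAAT or ATTGG), which do not overlap here. The Sptan1 window is chr2:29965410-29965559 on the plus strand, that of Actn4 is chr7:28962352-28962501 on the minus strand and that of Actn1 is chr12:80260421-80260570 on the minus strand.
Sptan1: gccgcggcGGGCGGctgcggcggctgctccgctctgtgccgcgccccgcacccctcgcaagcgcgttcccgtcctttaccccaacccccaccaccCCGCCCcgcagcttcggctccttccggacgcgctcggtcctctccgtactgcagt
Actn4: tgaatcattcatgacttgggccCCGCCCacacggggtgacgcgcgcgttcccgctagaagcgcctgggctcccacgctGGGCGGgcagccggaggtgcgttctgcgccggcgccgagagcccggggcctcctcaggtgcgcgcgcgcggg
Actn1: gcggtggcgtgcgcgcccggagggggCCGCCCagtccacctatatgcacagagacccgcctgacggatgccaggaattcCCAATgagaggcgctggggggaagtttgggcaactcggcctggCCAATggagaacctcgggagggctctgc
In these 150 bases Sptan1 and Actn4 held 2 GC boxes each, and Actn1 held 1 GC box and 2 CCAAT boxes. Entries of 300 bases, from 250 before to 50 after a start, were given for 6 of the 9 genes, 13 windows in all, since Ank2, Sptbn4 and Sptbn1 have several. Motifs were searched only in the 250 bases before the start of each window. A GC box was found there in 8 of the 13, against 32.7% of 32851 promoter windows, and a CCAAT box in 4 of the 13, against 33.8%. Windows of the same gene are not independent, and several of those with a GC box belong to Sptbn4. By gene, 5 of the 6 had a GC box and 3 of the 6 a CCAAT box, with no share by gene computed for all promoters. The CArG box, the element of the serum response factor, was in 0 of the 13 and in 1.47% of all windows. A match describes letters in a window and is no evidence of binding.

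Some counts are uncertain where annotations overlap, since a stranded library kit is named in the study's materials and another kit in the labels, and the strand setting of the counting is not given in the sources used here. Actn4 shares 338 bases with Capn12, which had 0 to 57 counts per library, and Ank1 overlaps Mir486 and Gm15816, which had at most 85 counts. Larger overlaps, by whole gene spans with introns, are with long noncoding genes not analysed here. They reach 11103 bases with Gm51446 and 4655 bases with Gm38978 for Actn4, 20787 bases with Gm52631 for Ank2, 21959 bases with Gm33464 for Ank3 and 15624 bases with Gm51887 for Sptbn1. Actn4 had at least 865 counts and Ank1 at least 176 counts in each library.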

How the data were processed

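White matter RNA from 6 mice was measured in 12 libraries, an anti-HA IP and an input library per animal, grouped from the sample labels. Per the methods and the submitters' processing notes, paired-end reads were aligned to mm10 with STAR, and HTSeq is also named; versions and the use of strand are not given in the sources used here. The labels name a Nugen Ovation kit and the methods a TruSeq kit with Ribo-Zero, listed among their materials as a stranded total RNA kit, so how ribosomal RNA was removed is uncertain. The authors deposited raw counts per gene, on which all tests here were run. The FPKM values deposited beside them served only to recover 1 length per gene. The deposited normalized signal was not used. The log2 fold changes and p-values deposited by the authors come from their own comparisons and were not used.

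Genes were kept by filterByExpr of edgeR 4.0.16 in R 4.3.3, which asked for 10 counts in enough libraries and 15 in all. Libraries of 19567186 to 33660708 counts were scaled by TMM, and 4 group means were fitted to all 12 libraries with glmQLFit. The 5 contrasts were tested with glmQLFTest, with Benjamini-Hochberg adjustment over 14354 genes and an adjusted p under 0.1 as the call. A standard error is the absolute fold change over the root of the F statistic. Ratios of single animals used a prior count of 0.5. The members and lists were chosen with earlier results of these data known. All 9 members were named, and from each list the genes called or otherwise at most the 4 most abundant, with the 5 genes most like the members' mean level. Genes named for marker levels, for overlap and Lars2, with Sptb, were added after their values were seen.

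The alternatives were RLE scaling, no filter, a likelihood ratio test, DESeq2 1.42.0, an adjusted p under 0.05, a fit without Rn45s and Lars2, only the libraries compared, a block by animal (random, in limma 3.58.1 voom, between diets) and each animal left out. IP and input of a number came from 1 mouse, which is the source of the pairing, and their deviations from the group means correlated at 0.00728 to 0.156 across genes. Libraries of a group differed far beyond sampling noise (chi-square over its degrees of freedom 118 or more). Coordinates and promoters are from RefSeq on GRCm38. Some results of the lists are not reported here.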

Additional observations from a re-analysis of the deposited data

How the results depend on the processing

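Of 576 member fold changes under the alternatives, 520 kept their direction and side of the threshold, 31 changed sign, 13 gained and 12 lost a call. RLE scaling changed no call of the 9 genes. The causes of the changes were not tested. For CFD IP against input, the number of genes called was 312 when no filter was applied, 277 by the likelihood ratio test, 982 with DESeq2, 14 with only the libraries compared, 139 with the replicate block and 3 at an adjusted p under 0.05. The members called were 6 with no filter, 0 with only the libraries compared and 0 at 0.05. For HFD IP against input these gene counts were 79, 4, 102, 0 and 24 in the first 5 of these settings, and 0 without Rn45s and Lars2, with 1 member called (Plec) with no filter and 1 with the replicate block. For HFD IP against CFD IP they were 219, 227, 958, 3, 5 with the block, 5 without Rn45s and Lars2 and 2 at 0.05, with 1 member called (Actn4) under no filter, the likelihood ratio test and DESeq2. For the inputs they were 3 with no filter and 38 with DESeq2, and for the interaction 44, 37 and 179 with no filter, the likelihood ratio test and DESeq2.

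Signs changed with the replicate block for Sptbn4 in CFD (-0.15), Actn1 in HFD (-0.14) and Ank3 between IP groups (0.16, and 0.00095 with no filter). On plain library totals, an alternative chosen after seeing the data, the mean log2 ratio was 0.0856 for Sptan1, 0.163 for Sptbn1, 0.470 for Ank2 and 0.185 for Ank3. The block added the calls of Ank2 in CFD (edgeR adjusted p 0.00946) and Plec in HFD (edgeR adjusted p 0.0944) and changed no other call of the 9 genes.

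Leaving out each animal in turn, the genes called ran from 2 to 52 (CFD IP against input), 0 to 35 (HFD IP against input), 1 to 20 (HFD IP against CFD IP), 0 to 1 (inputs) and 0 to 1 (interaction). The members called ran from 0 to 4 in CFD IP against input, with 0 without animal 489, 555 or 556, and were 0 in the other comparisons. Log2 fold changes that crossed 0 ran from -0.74 to 0.69 for Sptbn4 in CFD IP against input and -0.30 to 0.60 for Actn1 in HFD IP against input. Between IP groups they ran from -0.85 to 0.30 for Sptan1, -0.68 to 0.12 for Sptbn1, -1.10 to 0.70 for Sptbn4 and -0.25 to 0.61 for Ank3. Between inputs they ran from -0.36 to 0.15 for Sptan1, -0.48 to 0.0156 for Sptbn1, -0.20 to 1.07 for Ank1, -0.48 to 0.0190 for Ank2, -0.36 to 0.0115 for Ank3, -0.59 to 0.26 for Plec, -0.38 to 0.31 for Actn1 and -0.14 to 0.38 for Actn4. In the interaction they ran from -0.65 to 0.16 for Sptan1, -0.56 to 0.20 for Sptbn1, -0.28 to 1.16 for Sptbn4 and -0.0767 to 0.60 for Ank3. Depth does not limit the upper tier, with at least 13132 counts per library, and 3 animals per group limit all comparisons.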

Other observations

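Animals 489 and 676 had the highest levels of most of the 9 genes in both fractions. Animal 489 was the highest of its group for 6 of 9 genes in CFD input and 7 of 9 in CFD IP, beside 35.3% and 37.0% of all genes tested. Animal 676 was the highest for 7 of 9 in HFD input and 6 of 9 in HFD IP, beside 37.2% and 35.9%. The 9 genes together took 0.888% of the counts in the IP of animal 489 and 0.317% to 0.354% in the other 2 CFD IP libraries.

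Actn2, a muscle alpha-actinin, also varied without a clear group pattern, from 1.31 to 29.2 CPM in CFD input and from 3.63 to 26.6 CPM in HFD IP. Utrn and Tln2, which link actin to adhesion complexes, had CFD log2 fold changes of IP over input of 1.43 (SE 0.464, edgeR adjusted p 0.267) and 1.07 (SE 0.348, edgeR adjusted p 0.268). These 3 genes were chosen after their values were seen.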
